A study of Homo sapiens with 16 samples.

Results

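Pancreatic islets secrete peptide hormones, and 6 of their genes were followed here in cultures differentiated from stem cells: INS, GCG, SST, GHRL, PPY and UCN3. They were taken by gene name from the deposited count table, 6 of its 62754 genes, with no cutoff on their values. The choice was made with earlier results of these data known. Total RNA had been sequenced from whole planar cultures of the established embryonic stem cell line HUES8 (human; written HUES08 in the labels, genotype WT), with 2 libraries for each of 8 treatments. All cultures followed the standard differentiation to stem cell-derived islets, and each received its addition from stage 5 through 7 days of stage 6. The additions were DMSO, the solvent control, or colchicine at 10 nM (a blocker of tubulin polymerisation), epirizole at 2.5 uM (an anti-inflammatory drug), Ly-294002 at 120 nM (a PI3 kinase inhibitor), moxifloxacin at 1.1 uM (a fluoroquinolone antibiotic), rottlerin at 1.23 uM (used as a kinase inhibitor), vardenafil at 125 nM (a phosphodiesterase 5 inhibitor) or rimonabant at 125 nM (which blocks the cannabinoid receptor CNR1). The compounds had been predicted by a computational tool, DBSOMA, as candidates to alter how beta cells mature, and the comparisons here ask whether any of them went with a different level of the hormone transcripts. The labels name 1 cell line and 1 batch (batch 1) and do not say whether the 2 libraries of a treatment were grown as separate differentiations. The p-values therefore reflect only how far these libraries differ from each other, and some of that may be technical.

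Each islet hormone marks an endocrine cell type. INS encodes insulin, the glucose-lowering hormone of beta cells, and GCG encodes glucagon, the hormone of alpha cells that raises blood glucose and whose precursor also yields the glucagon-like peptides in gut cells. SST encodes somatostatin, by which delta cells restrain the release of insulin and glucagon, GHRL encodes ghrelin of epsilon cells and of the stomach, and PPY encodes the pancreatic polypeptide of PP cells. UCN3 encodes urocortin 3, a peptide of the corticotropin-releasing family that adult beta cells co-release with insulin and that is widely used as a sign of beta-cell maturity. All are cut from longer precursors in secretory granules, which also hold chromogranins and secretogranins.

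The 6 genes lie apart in the genome (GRCh38, gene spans from GENCODE release 29). INS (ENSG00000254647) spans 2159779 to 2161341 on the minus strand of chromosome 11, GCG (ENSG00000115263) 162142873 to 162152404 on the minus strand of chromosome 2, and SST (ENSG00000157005) 187668906 to 187670399 on the minus strand of chromosome 3. GHRL (ENSG00000157017) spans 10285675 to 10292947 on the minus strand of chromosome 3, PPY (ENSG00000108849) 43940804 to 43942468 on the minus strand of chromosome 17, and UCN3 (ENSG00000178473) 5365009 to 5374692 on the plus strand of chromosome 10. All are protein coding. Each span was checked for overlapping genes, whose reads can be shared. INS is overlapped on its own strand by the readthrough gene INS-IGF2, which had at most 1 read in any library. GHRL is overlapped on the other strand by the antisense gene GHRLOS, which had 211 to 355 reads in a library. LINC00852 and AC022384.1 overlap it there too. The strand setting of the counting is not given in the sources used here, so reads of GHRL and GHRLOS may not be fully separated. PPY2P, a pseudogene resembling PPY, had 0 reads in every library.

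The sequences before the starts of INS, GCG, SST and GHRL are shown because INS, GCG and SST ran together across the libraries and GHRL did so less closely. Each is the 250 bases before the RefSeq start (GRCh38.p14), read 5′ to 3′ on the strand of the gene, and all 4 lie on the minus strand. The INS window is chr11:2161210-2161459, the GCG window chr2:162152248-162152497, the SST window chr3:187670395-187670644 and the GHRL window chr3:10292948-10293197, which lies within the span of GHRLOS. Capitals mark 3 motifs searched on both strands: TAAT, the core bound by many homeodomain factors, CANNTG, the E-box bound by basic helix-loop-helix factors, which reads alike on both strands, and TGACGTCA, the cyclic AMP response element.
INS: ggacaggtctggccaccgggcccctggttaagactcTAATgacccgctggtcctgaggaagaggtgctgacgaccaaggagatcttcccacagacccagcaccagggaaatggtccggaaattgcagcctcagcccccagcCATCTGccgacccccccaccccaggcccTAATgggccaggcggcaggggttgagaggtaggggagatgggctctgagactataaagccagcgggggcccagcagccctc
GCG: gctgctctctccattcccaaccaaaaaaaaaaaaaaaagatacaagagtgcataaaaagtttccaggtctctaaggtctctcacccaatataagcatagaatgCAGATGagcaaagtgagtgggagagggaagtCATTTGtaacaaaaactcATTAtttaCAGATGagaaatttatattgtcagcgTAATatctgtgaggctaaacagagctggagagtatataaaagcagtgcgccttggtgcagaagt
SST: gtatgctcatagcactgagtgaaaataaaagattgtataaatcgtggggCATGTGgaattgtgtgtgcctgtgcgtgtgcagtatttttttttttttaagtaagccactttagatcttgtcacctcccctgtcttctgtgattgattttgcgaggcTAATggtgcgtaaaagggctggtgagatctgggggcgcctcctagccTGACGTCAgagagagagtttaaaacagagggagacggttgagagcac
GHRL: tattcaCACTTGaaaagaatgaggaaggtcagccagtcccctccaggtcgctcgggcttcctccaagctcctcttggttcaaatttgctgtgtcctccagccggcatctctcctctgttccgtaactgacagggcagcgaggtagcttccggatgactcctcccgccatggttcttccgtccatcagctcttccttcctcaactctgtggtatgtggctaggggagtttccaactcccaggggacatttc

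The INS window held 2 TAAT and 1 CANNTG, the GCG window 2 and 3, and the SST window 1 and 1. The GHRL window held 0 TAAT and 1 CANNTG. Of the 4, the SST window alone held TGACGTCA, with 1 match. Over 35116 windows of this length before RefSeq starts, 47.4% held a TAAT, 61.8% a CANNTG and 1.65% a TGACGTCA, so the first 2 are common in such windows. No matches of different motifs overlapped. The 2 RefSeq starts of PPY had windows with no TAAT and no TGACGTCA, and with 0 and 2 CANNTG. A match is a run of letters and was not tested as a binding site. No link of the motifs with the running together of genes was tested. PPY, with no TAAT, had a higher Pearson's r over the libraries with INS (0.694) and SST (0.746) than GHRL had (0.536 and 0.678). UCN3 had no window in the set used and was not searched.

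Hormone transcripts were rare in all 16 libraries, whose totals ran from 23294377 to 30701868 reads. The 6 genes together had 129 to 1320 reads in a library, or 4.22 to 46.7 CPM (the usual read count scaled to the library total), against 966 to 8919 reads for CHGA, the granule protein chromogranin A. Per kilobase of exon, SST had the highest level of the 6 in 16 of 16 libraries, with a median of 10.7 CPM per kb. INS followed with 2.75 CPM per kb, above GCG in 15 of 16 libraries, and GCG with 1.75 CPM per kb. GHRL (0.646 CPM per kb), PPY (0.205 CPM per kb) and UCN3 (0.202 CPM per kb) were lower, and UCN3 lay above PPY in 11 of 16 libraries. The exon length was the union over all annotated transcripts of a gene, 0.776 kb for INS and 2.387 kb for GCG. Without division by length the order of INS and GCG was the other way, with medians of 2.13 and 4.18 CPM. IAPP, the amyloid peptide stored with insulin, had at most 1 read in any library, and the beta-cell factor MAFA reached 0.358 CPM. Other islet genes were higher: the factors PDX1 and NKX6-1 had medians of 40.8 and 2.82 CPM, and ABCC8, of the beta-cell potassium channel, 8.24 CPM. Fewer cells of a type and less RNA per cell cannot be told apart in such bulk samples. Depth limits what can be read from single libraries: 3 reads, the number that a count of 0 still allows, correspond to 0.0977 to 0.129 CPM, and this covers counting error only.

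INS, the insulin gene, had 17 to 180 reads. The DMSO libraries had 69 and 17 reads of INS, those with colchicine 125 and 26, with epirizole 124 and 33, and with Ly-294002 24 and 63 (library 1 and library 2 in each case). Those with moxifloxacin had 43 and 180 reads of INS, with rottlerin 105 and 27, with vardenafil 59 and 92, and with rimonabant 36 and 56. Every treatment thus had 1 library with at most 59 reads and 1 with at least 56, and the lowest and the highest of the 16 were DMSO 2 and Moxifloxacin 2. After scaling by TMM factors, the 2 libraries of a treatment differed between 1.44-fold with rimonabant and 5.45-fold with colchicine. Treatment means ran from 1.55 ± 0.395 CPM (SD, n = 2) with rimonabant to 3.94 ± 3.26 CPM with moxifloxacin, with DMSO at 1.83 ± 1.67 CPM. In order, moxifloxacin was followed by vardenafil, colchicine, epirizole, rottlerin, DMSO, Ly-294002 and rimonabant, and the ranges of all 7 neighbours in that order overlapped.

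GCG, the glucagon gene, had 34 to 282 reads. The DMSO libraries were close to each other, with 112 and 110 reads of GCG, while those with colchicine had 200 and 65, with epirizole 181 and 50, and with Ly-294002 34 and 152. Those with moxifloxacin had 67 and 282 reads of GCG, with rottlerin 161 and 34, with vardenafil 58 and 129, and with rimonabant 38 and 123. The 2 libraries of a treatment differed between 1.16-fold (DMSO) and 5.39-fold (Ly-294002). The DMSO mean was 4.55 ± 0.468 CPM (SD, n = 2), the highest mean 6.17 ± 5.11 CPM with moxifloxacin and the lowest 2.68 ± 1.89 CPM with rimonabant. Between these lay colchicine, DMSO, epirizole, vardenafil, Ly-294002 and rottlerin in that order, with all 7 neighbours overlapping. Both rimonabant libraries lay below both DMSO libraries after TMM scaling, but Rimonabant 2 did not by reads or by plain CPM (4.204, against 4.159 in DMSO 2).

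SST, the somatostatin gene, gave the most hormone reads, 33 to 783 in a library. The DMSO libraries had 302 and 146 reads of SST, those with colchicine 424 and 112, with epirizole 625 and 97, and with Ly-294002 111 and 176. Those with moxifloxacin had 100 and 783 reads of SST, with rottlerin 447 and 33, with vardenafil 157 and 349, and with rimonabant 108 and 278. The rottlerin libraries were the most unequal, differing 13.1-fold, and those with Ly-294002 the least, 1.91-fold. Treatment means ran from 5.27 ± 2.33 CPM (SD, n = 2) with Ly-294002 to 15.5 ± 16.5 CPM with moxifloxacin, around 9.38 ± 5.35 CPM in DMSO. From high to low they were moxifloxacin, epirizole, vardenafil, colchicine, DMSO, rottlerin, rimonabant and Ly-294002. All 28 pairs of treatments overlapped in SST.

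**Figure D1:**
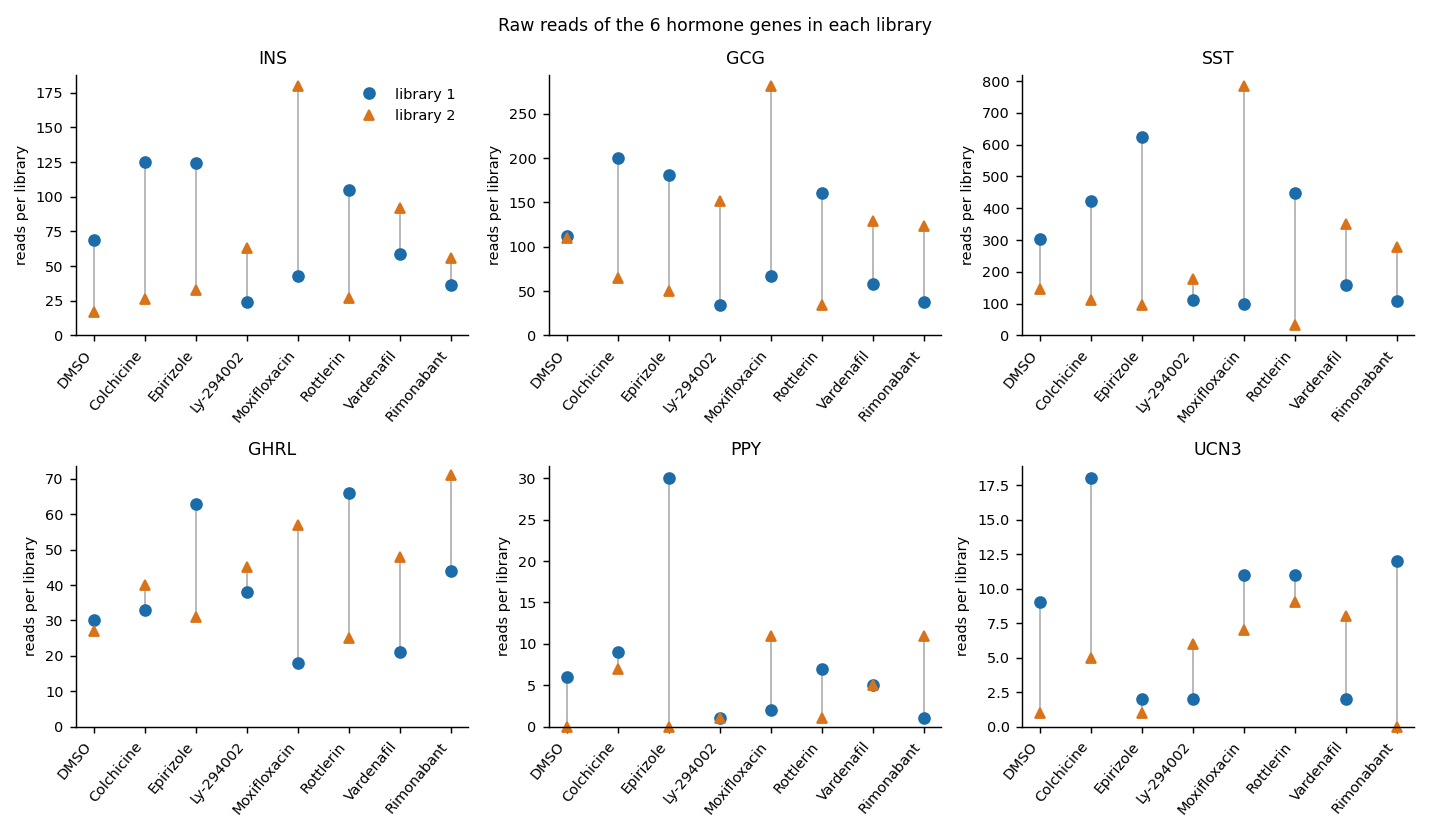
Raw reads (vertical axis, from 0) of each hormone gene in each of the 16 libraries, with the 2 libraries of a treatment joined by a line. INS, GCG and SST show 1 high and 1 low library in nearly every treatment, the DMSO libraries of GCG (112 and 110 reads) being alike; PPY and UCN3 never exceed 30 and 18 reads.

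GHRL, the ghrelin gene, varied least, with 18 to 71 reads. The DMSO libraries had 30 and 27 reads of GHRL, those with colchicine 33 and 40, with epirizole 63 and 31, and with Ly-294002 38 and 45. Those with moxifloxacin had 18 and 57 reads of GHRL, with rottlerin 66 and 25, with vardenafil 21 and 48, and with rimonabant 44 and 71. Libraries of a treatment differed by 1.07-fold (colchicine) to 2.88-fold (moxifloxacin). Means lay between 1.17 ± 0.192 CPM in DMSO (SD, n = 2) and 1.94 ± 0.542 CPM with rimonabant, whose libraries both lay above both DMSO libraries. Below rimonabant came epirizole, rottlerin, Ly-294002, vardenafil, colchicine, moxifloxacin and DMSO, with all 7 neighbours overlapping. The antisense gene GHRLOS stayed between 8.63 and 12.6 CPM, and MBOAT4, the enzyme that acylates ghrelin, had a median of 0.213 CPM.

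PPY, the pancreatic polypeptide gene, was at or under 3 reads in 7 of 16 libraries. Its reads were 6 and 0 in DMSO, 9 and 7 with colchicine, 30 and 0 with epirizole, and 1 and 1 with Ly-294002. They were 2 and 11 with moxifloxacin, 7 and 1 with rottlerin, 5 and 5 with vardenafil, and 1 and 11 with rimonabant. The count of 0 allows up to 0.113 CPM in DMSO 2 and up to 0.10 CPM in Epirizole 2. UCN3 was at or under 3 reads in 6 libraries. Its reads were 9 and 1 in DMSO, 18 and 5 with colchicine, 2 and 1 with epirizole, and 2 and 6 with Ly-294002. They were 11 and 7 with moxifloxacin, 11 and 9 with rottlerin, 2 and 8 with vardenafil, and 12 and 0 with rimonabant, where the count of 0 allows up to 0.103 CPM. The highest and lowest means of PPY were those with epirizole (0.510 ± 0.721 CPM, SD, n = 2) and Ly-294002 (0.0359 ± 0.00474 CPM), and those of UCN3 were with colchicine (0.438 ± 0.376 CPM) and epirizole (0.0510 ± 0.0241 CPM). Neighbours in the order of means overlapped in 7 of 7 cases for both genes. PPY had under 10 reads in 13 libraries and UCN3 in 12, and both passed the filter on low counts through the few libraries with more.

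The spread of the hormone genes lay within treatments more than between them. Of the variance of log2(CPM + 0.5) over the 16 libraries, the share between treatments was 19.5% for INS, 15.9% for GCG, 13.2% for SST, 16.4% for GHRL, 25.1% for PPY and 37.0% for UCN3. The median of all 24515 tested genes was 53.7%. With 8 treatments of 2 libraries much of the variance falls between treatments even without an effect, so this median does not measure treatment effects. SST stood at the 0.934 percentile of these genes, GCG at the 1.68, GHRL at the 1.88 and INS at the 3.22 percentile. PPY stood at the 6.94 and UCN3 at the 20.6 percentile (a description, with no test). INS, GCG, SST and PPY were higher in the same library of the pair in 8 of 8 treatments, although the PPY reads were equal in 2 of these and the direction there came from depth. GHRL went with INS in 7 of 8 treatments and UCN3 in 6 of 8. The library with more INS was library 1 in DMSO, colchicine, epirizole and rottlerin and library 2 in the other 4.

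The hormone genes varied together, apart from UCN3. Over the 16 libraries, Pearson's r of log2(CPM + 0.5) was 0.829 between INS and GCG (Spearman's rho 0.847, permutation p = 0.00022 for r and 9e-05 for rho, adjusted p = 0.00077). It was 0.889 between INS and SST (rho 0.876, permutation p = 2e-05 and 4e-05, adjusted p = 8.4e-05) and 0.903 between GCG and SST (rho 0.915, permutation p = 1e-05, the smallest that the permutations can give, and 2e-05, adjusted p = 8.4e-05). Without the 2 libraries farthest from the median of the first gene, r was 0.917, 0.914 and 0.891. These 3 relations also passed over the 8 differences between library 1 and library 2, which take out the treatment. There r was 0.937, 0.927 and 0.949 (exact permutation p = 0.0066, 0.00764 and 0.00176, adjusted p = 0.0198, 0.0201 and 0.0141). The differences were centred on their mean, so here and below r and p over them depend on which library is numbered 1. Other numberings were not tried. The counts of treatments with the same library higher do not depend on the numbers. In all, 21 relations were computed and adjusted together by Benjamini and Hochberg, 15 between hormones and 6 with granule genes, and 15 had an adjusted p under 0.05.

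GHRL and PPY joined the other hormones less closely. GHRL had an r of 0.678 with SST (rho 0.662, permutation p = 0.00445 and 0.0066, adjusted p = 0.00934), 0.572 with GCG (rho 0.503, permutation p = 0.0217 and 0.0489, adjusted p = 0.0326) and 0.536 with INS (rho 0.521, permutation p = 0.0338 and 0.0405, adjusted p = 0.0473). Without the 2 farthest libraries these were 0.597, 0.515 and 0.453, with permutation p adjusted to 0.0595, 0.0907 and 0.137. None of the 3 passed there, with fewer libraries and a narrower range. By rho, too, the relations of GHRL with GCG and INS did not pass (permutation, adjusted p = 0.0685 and 0.0608). Over the 8 differences, in the numbering of the labels, all 3 relations of GHRL passed. There r was 0.943 with SST (exact permutation p = 0.000496, adjusted p = 0.0104). It was 0.841 with GCG (exact permutation p = 0.0134, adjusted p = 0.03125) and 0.817 with INS (exact permutation p = 0.0193, adjusted p = 0.0338). PPY had an r of 0.746 with SST (rho 0.823), 0.694 with INS (rho 0.762), 0.603 with GCG (rho 0.673) and 0.565 with GHRL (rho 0.611), with permutation p for r of 0.00083, 0.00174, 0.0106 and 0.0196 and adjusted p of 0.00249, 0.00457, 0.0186 and 0.0317. Without the 2 farthest libraries PPY no longer passed with GCG (r = 0.534, adjusted permutation p = 0.0752) or GHRL (r = 0.537, adjusted permutation p = 0.0730). Over the 8 differences it did not pass with INS (r = 0.715, adjusted exact permutation p = 0.0560) or GCG (r = 0.728, adjusted exact permutation p = 0.0538). UCN3 had r of 0.412 with INS, 0.236 with GCG, 0.169 with SST, −0.06 with GHRL and −0.01 with PPY, with permutation p from 0.113 to 0.967 and adjusted p from 0.148 to 0.967. UCN3 and PPY had few reads, and the part of counting error in these relations was not tested.

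Granule genes moved with the hormones. A granule score, the mean log2(CPM + 0.5) of 7 genes (CHGA, CHGB, SCG2, SCG3, SCG5 and the prohormone convertases PCSK1 and PCSK2), ran from 1.95 to 3.86 over the libraries, with no gap between neighbours above 0.447. Its r was 0.899 with INS (rho 0.844, permutation p = 2e-05 and 5e-05), 0.901 with GCG (rho 0.894, permutation p = 2e-05 and 1e-05) and 0.932 with SST (rho 0.900, permutation p = 1e-05 and 3e-05), each with an adjusted p of 8.4e-05. It was 0.677 with GHRL (rho 0.688, adjusted p = 0.0102 by permutation), 0.680 with PPY (rho 0.648, adjusted p = 0.00555 by permutation) and 0.302 with UCN3 (rho 0.218, adjusted p = 0.315 by permutation). Without the 2 farthest libraries the relations with GHRL (r = 0.590, adjusted permutation p = 0.0595) and PPY (r = 0.560, adjusted permutation p = 0.0730) did not pass, and that with PPY did not pass over the 8 differences (r = 0.710, adjusted exact permutation p = 0.0566). CHGA, CHGB, SCG2, SCG3 and PCSK1 were each higher in the INS-richer library of 8 of 8 treatments. PCSK2, which cuts proglucagon and proinsulin, was so in 3 of 8 and lay between 16.7 and 48.4 CPM, and SCG5, at most 10 reads, in 4 of 8.

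**Figure D2:**
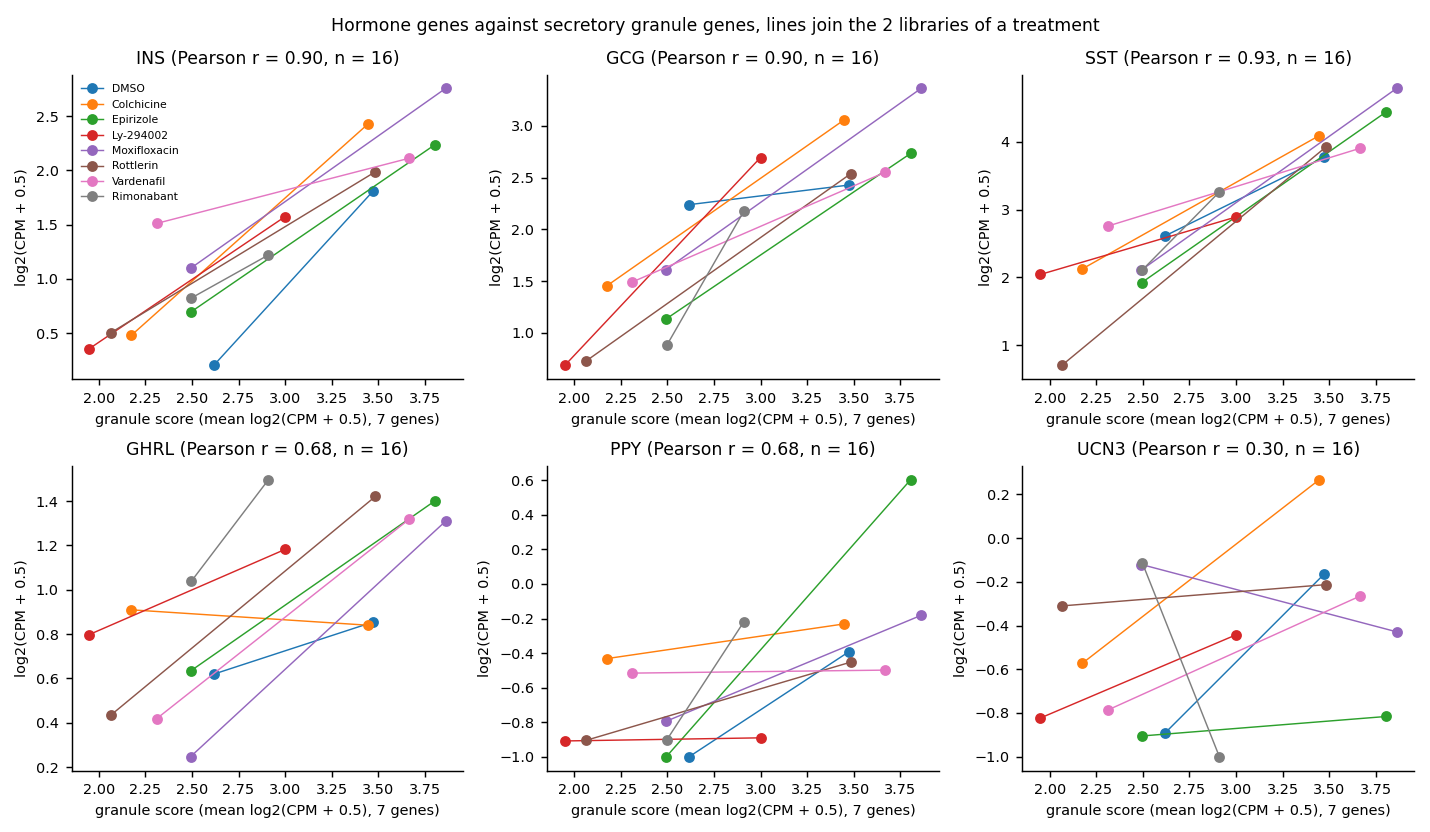
Level of each hormone gene (vertical axis, log2(CPM + 0.5)) against the granule score (horizontal axis) in 16 libraries, coloured by treatment, with a line between the 2 libraries of a treatment. For INS, GCG and SST every line rises to the right and r is 0.899, 0.901 and 0.932; for UCN3 lines run both ways and r is 0.302.

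Markers of other cell types also differed between the paired libraries. The summed level of 16 enteroendocrine and enterochromaffin-like genes, among them TPH1 of serotonin synthesis and 1 granule gene, PCSK1, ran from 27.0 to 102.1 CPM and was higher in the INS-richer library of 8 of 8 treatments. The summed level of 12 mesenchyme genes, such as collagens COL1A1 and COL3A1, ran from 1834 to 3761 CPM and was lower in it in 7 of 8. Duct and pancreatic progenitor genes (8 genes, 858 to 1166 CPM) were higher in 7 of 8, liver and gut genes (11 genes, 5416 to 10205 CPM), acinar genes (8 genes, 8.70 to 12.1 CPM, with PNLIP and CELA3A at no more than 3 reads) and neural genes (7 genes, 41.7 to 86.1 CPM) in 6 of 8, and endothelial and blood genes (7 genes, 2.38 to 7.22 CPM) and pluripotency genes (6 genes, 191 to 285 CPM) in 5 of 8. Their part in the hormone differences was not tested.

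Genes with patterns most like a hormone were looked for among 17471 genes with a median of at least 1 CPM, by Pearson's r of log2(CPM + 0.5) over the 16 libraries, as a description. INS was most like CELF3 (r = 0.945), ABCC8, the sulfonylurea receptor of the beta-cell potassium channel (0.930), SEZ6L (0.929), UNC80 (0.919) and B3GAT1 (0.919). GCG was most like PAX6, a transcription factor of all islet endocrine cells (0.943), CHGB (0.943), TNR (0.927), CFAP221 (0.915) and SCG3 (0.914). SST was most like the glutamate receptor subunit GRIA2 (0.966), PAX6 (0.958), UNC80 (0.955), SEZ6L (0.953) and ELAPOR1 (0.953). The nearest genes of GHRL were TUBA4A (0.856), CRIP2 (0.840), LINC01811 (0.839), SDHAF4 (0.833) and NYAP1 (0.833), and those of PPY were SFMBT2 (0.840), SLIT1 (0.830), RIMBP2 (0.814), the amine-synthesis enzyme DDC (0.799) and AHSG (0.797). For UCN3 they were CRK, MGST1, TAF13, UGT2B15 and ATP6V0E1, with r from 0.760 to 0.782. CHGA ranked 8 for GCG, 12 for SST, 37 for INS and 4513 for UCN3.

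SST made up the largest part of the 6 genes' reads in every library except Rottlerin 2, where GCG had 34 reads and SST 33. The share of INS ran from 5.65% in DMSO 2 (95% Wilson interval 3.56 to 8.86%) to 20.9% in Rottlerin 2 (14.8 to 28.7%), with a median of 13.9%. The share of SST ran from 25.6% in Rottlerin 2 to 61.0% in Epirizole 1 (median 51.8%), and that of GCG from 15.9% in Rimonabant 1 to 36.5% in DMSO 2 (median 22.1%). GHRL took 4.08% in Colchicine 1 and 19.4% in Rottlerin 2, which had the fewest hormone reads, 129. Set against CHGA, INS made up 0.718% of INS and CHGA reads in DMSO 2 (95% Wilson interval 0.449 to 1.15%), the lowest share, and 4.77% in Vardenafil 1 (3.71 to 6.10%), the highest. The other DMSO library had 1.73% (1.37 to 2.19%) and the other vardenafil library 1.81% (1.48 to 2.22%), so that replicates of both treatments lay apart by more than counting error.

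**Figure D3:**
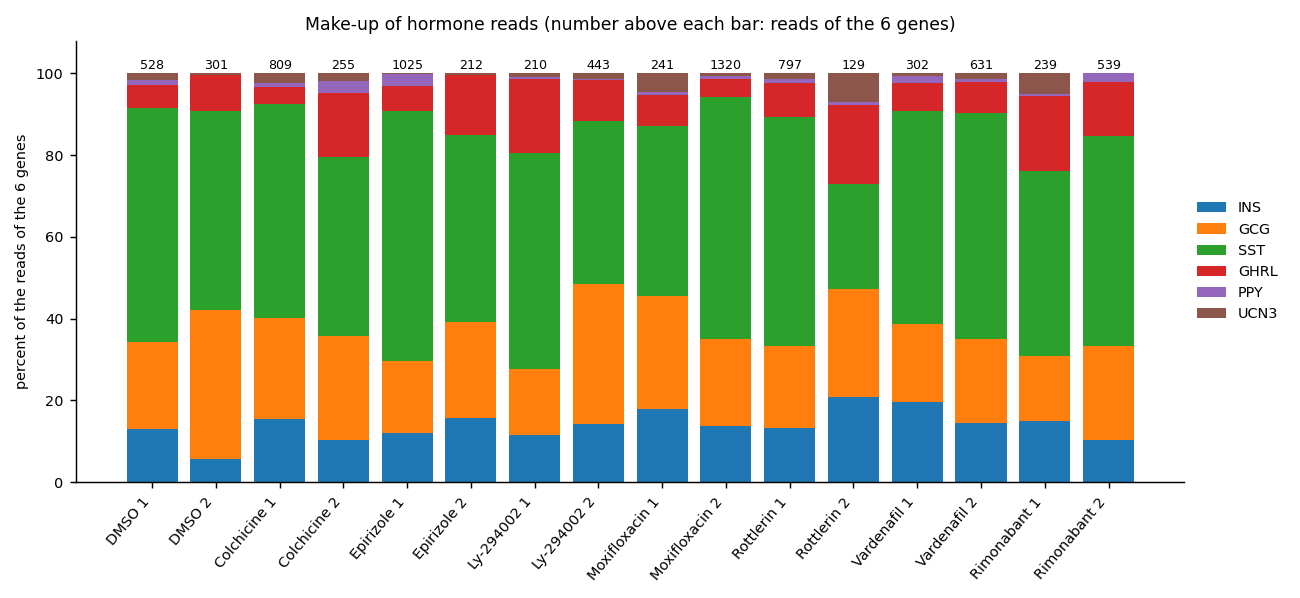
Share of each gene (percent, stacked) in the reads of the 6 hormone genes in each library, with the number of those reads above the bar. SST is the largest part in 15 of 16 libraries, and the number of reads runs from 129 in Rottlerin 2 to 1320 in Moxifloxacin 2.

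No compound was found to change a hormone gene. By edgeR's quasi-likelihood test, 0 of 6 hormone genes passed an adjusted p of 0.05 with colchicine, where 0.196% of all tested genes did, 0 with rottlerin (0.00816%) and 0 with rimonabant (7.80%). It was also 0 of 6 with epirizole, Ly-294002, moxifloxacin and vardenafil, where 0% of the tested genes passed, and for the mean of the 7 compounds against DMSO (0%). The joint test of the 7 compounds called 0 of 6 as well (0.00408% of all genes), with adjusted p from 0.814 for UCN3 to 0.984 for GCG. In each of these comparisons 0 of the 6 had an unadjusted p under 0.05, by edgeR or by DESeq2, and DESeq2 called 0. By edgeR, 17.5% of all tested genes had one with colchicine, 5.26% with epirizole, 4.69% with Ly-294002 and 11.9% with moxifloxacin. The share was 14.8% with rottlerin, 5.22% with vardenafil, 24.8% with rimonabant, 16.6% for the mean of the compounds and 12.9% in the joint test. DESeq2 gave no adjusted p for 5 of the 6 with moxifloxacin, 3 with rottlerin, 3 with rimonabant, 2 with colchicine, 4 for the mean of the compounds and 2 in the joint test, so these could not be called by it. The 7 comparisons share the 2 DMSO libraries.

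Most changes were smaller than their errors. For INS, GHRL, PPY and UCN3, 1 of the 7 changes of each gene exceeded its standard error, and for GCG and SST 0 did. For INS the 7 log2 changes from DMSO ran from −0.22 to 1.13 with standard errors (SE) of 1.11 to 1.15, for GCG from −0.76 to 0.44 (SE 1.09 to 1.13) and for SST from −0.84 to 0.73 (SE 1.36 to 1.40). For GHRL they ran from 0.19 to 0.73 (SE 0.57 to 0.58), all 7 above DMSO, for PPY from −1.69 to 1.98 (SE 1.50 to 2.07) and for UCN3 from −1.95 to 1.03 (SE 1.18 to 1.50). A 2-fold change of INS, GCG or SST would lie within 1 SE of 0. The change with the smallest p was 1.13 (SE 1.11, edgeR adjusted p = 0.729) for INS with moxifloxacin, but −0.13 without Moxifloxacin 2. For GCG it was −0.76 with rimonabant (SE 1.13, edgeR adjusted p = 0.752), for SST −0.84 with Ly-294002 (SE 1.40, edgeR adjusted p = 0.986) and for GHRL 0.73 with rimonabant (SE 0.57, edgeR adjusted p = 0.479). These moved to −0.18 for GCG without Rimonabant 1 and −1.76 without Rimonabant 2, to −0.09 for SST without DMSO 1 and −1.36 without Ly-294002 2, and to 0.41 for GHRL without Rimonabant 2. For PPY and UCN3 it was epirizole, with 1.98 (SE 1.50, edgeR adjusted p = 0.911) and −1.95 (SE 1.50, edgeR adjusted p = 0.911), but −4.83 for PPY without Epirizole 1, where the lone library left had 0 reads, and 0.38 for UCN3 without DMSO 1.

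Of the 6 genes, GHRL alone had both libraries of a compound above both DMSO libraries, and only with rimonabant, where 26.8% of all tested genes did. GCG alone had both below, also with rimonabant only, where 26.4% of all tested genes did. These counts are on the TMM scale, and that of GCG does not hold in plain CPM. With the other compounds 0 of 6 were above, where 24.5% of all tested genes were with colchicine, 19.0% with epirizole, 19.5% with Ly-294002, 23.2% with moxifloxacin, 23.6% with rottlerin and 19.4% with vardenafil. Likewise 0 of 6 were below, where 25.8%, 19.0%, 19.5%, 24.4%, 24.4% and 20.0% of all tested genes were, in the same order. With an offset for the GC content of transcripts, the changes with rimonabant were 0.48 (SE 0.54) for GHRL and −0.47 (SE 1.16) for GCG.

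Levels relative to the granule genes were compared with the granule score as a covariate in the same fit. This lowered the SE to 0.39 to 0.42 for INS, 0.38 to 0.39 for GCG, 0.46 to 0.50 for SST and 0.37 to 0.39 for GHRL. INS then lay above DMSO with all 7 compounds, by 0.34 to 1.05 in log2 units. The unadjusted p by edgeR was under 0.05 for 3 of them, and none passed. These were vardenafil (1.05, SE 0.39, edgeR adjusted p = 0.725), moxifloxacin (0.86, SE 0.39, edgeR adjusted p = 0.326) and colchicine (0.84, SE 0.39, edgeR adjusted p = 0.220). The share of all tested genes with an unadjusted p under 0.05 was not taken in this fit. In the edgeR fit without the covariate it was 5.22% with vardenafil, 11.9% with moxifloxacin and 17.5% with colchicine. The 7 INS changes share the 2 DMSO libraries and are not independent. DMSO 2 had the fewest INS reads of all libraries, 17, and the lowest share of INS in INS and CHGA reads. That share was 0.718%, against 1.73% in DMSO 1. The part of DMSO 2 in the shared direction was not tested. GHRL with rimonabant had the smallest adjusted p, 0.0992 by edgeR (change 0.96, SE 0.37). GCG ran from −0.68 to 0.16, SST from −0.35 to 0.30, PPY from −0.61 to 1.83 and UCN3 from −1.98 to 1.14. The score comes from the same libraries and may itself respond to a compound, and its 2 DMSO values were 3.47 and 2.62.

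**Figure D4:**
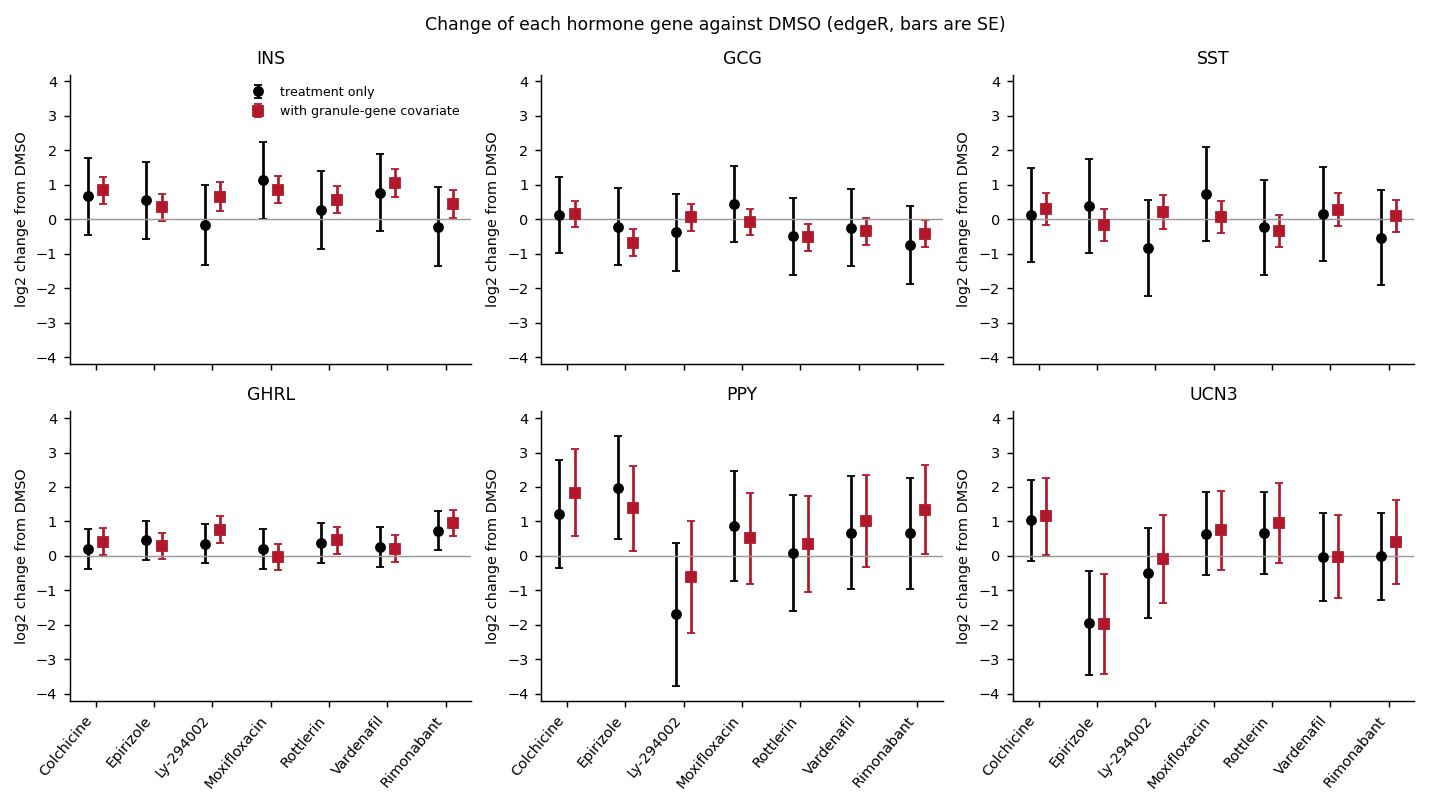
Log2 change from DMSO (vertical axis) of each hormone gene with each compound, from edgeR fits without (circles) and with (squares) the granule score as a covariate; bars are SE. Without it all INS changes lie within about 1 SE of 0. With it all 7 INS changes lie between 0.34 and 1.05, none past an adjusted p of 0.05. All 7 share the same DMSO libraries.

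Among genes that make, release or sense the hormones, 5 were called with rimonabant, where 7.80% of all tested genes were. Of 24 tested genes of hormone processing and secretion, 2 rose and 1 fell: PCSK1N, the inhibitor of PCSK1 (1.34, SE 0.33, edgeR adjusted p = 0.0327), the disulfide isomerase PDIA4 (0.36, SE 0.08, edgeR adjusted p = 0.0198) and the vesicle protein SYT4 (−1.72, SE 0.46, edgeR adjusted p = 0.0364). Of 22 islet transcription factors, 1 fell, RFX3 (−0.43, SE 0.08, edgeR adjusted p = 0.013), and of 10 receptors of the 6 hormones 1 rose, the glucagon receptor GCGR (0.87, SE 0.25, edgeR adjusted p = 0.0463). Of 6 granule genes and 14 other islet, gut and neural peptide genes, 0 passed. With the GC offset edgeR called 0 of all genes with rimonabant (2237 had an unadjusted p under 0.05), and these 5 changed by 0.30 (PCSK1N), 0.20 (PDIA4), −1.47 (SYT4), −0.13 (RFX3) and 0.27 (GCGR). With each of the other 6 compounds, 0 genes of these lists passed by edgeR; 0 to 0.196% of all tested genes did. Among the markers of other cell types, KRT19 of duct, APOA1 of liver and TUBB3 of neurons rose with rimonabant. They changed by 0.37 (SE 0.10, edgeR adjusted p = 0.0384), 0.90 (SE 0.20, edgeR adjusted p = 0.0259) and 0.65 (SE 0.17, edgeR adjusted p = 0.0324). KRT19 was the only call among 7 tested duct and progenitor genes, whose median log2 change was −0.08. APOA1 was the only call among 11 liver and gut genes (median 0.26), and TUBB3 among 6 neural genes (median −0.10). Single calls thus do not give the direction of a cell type, and 7.80% of all tested genes were called. With the other compounds 0 of these markers passed. With the GC offset the rimonabant changes were −0.12 (KRT19, the other direction), 0.37 (APOA1) and 0.22 (TUBB3), and none passed.

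Several partners of the hormones were abundant where the hormones were not. Among processing and release genes, the amidating enzyme PAM had a median of 259 CPM, RAB3B of vesicle docking 355 CPM, PDIA4 203 CPM and carboxypeptidase CPE 82.6 CPM, while SLC30A8, the zinc transporter of insulin granules, had 0.263 CPM. Among receptors, the insulin receptor INSR had a median of 212 CPM, the related IGF1R 338 CPM, the GLP-1 receptor GLP1R 75.8 CPM and the somatostatin receptor SSTR2 20.0 CPM, and the ghrelin receptor GHSR had 0 reads in every library. Among transcription factors, GLIS3 (166 CPM), RFX6 (89.6 CPM), RFX3 (60.2 CPM) and PDX1 (40.8 CPM) had the highest medians. Of the other peptide genes, IGF2 had a median of 1529 CPM, the gut peptide neurotensin (NTS) 24.0 CPM, EDN3 7.76 CPM and POMC 1.52 CPM. PYY, the neighbour and relative of PPY on chromosome 17 (43952738 to 44004469, minus strand), had 4 to 104 reads and was higher in the INS-richer library of 8 of 8 treatments.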

How the data were processed

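Per the labels' protocols, RNA was depleted of ribosomal RNA (KAPA RNA HyperPrep with RiboErase), sequenced from both ends, trimmed with Trimmomatic 0.38 and aligned with STAR 2.7.1a, and duplicates were marked with Picard 2.20.4. Counting was by featureCounts 1.6.0 or HTSeq per the same protocols; HTSeq and the build GRCh38 also stand in the submitters' processing notes. Annotation release, strand setting and treatment of duplicates are not given in the sources used here. The deposited values were raw read counts per gene, not normalised by the authors, with 62754 genes in 16 libraries.

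Counts were fitted in R 4.3.3 with edgeR 4.0.16: filterByExpr on the 8 groups left 24515 genes, libraries were scaled by TMM, and all 16 libraries entered 1 quasi-likelihood fit with 8 residual degrees of freedom. Each compound, their mean and the 7 coefficients together were tested against DMSO, with Benjamini-Hochberg adjustment over all tested genes. DESeq2 1.42.0 was an alternative, as were other scaling, no filter, a GC offset, the granule score as covariate and left-out libraries. Correlations used 100000 permutations in Python 3.11.15. Library numbers were checked for pairing and not used as pairs, and they set only the sign of the 8 within-treatment differences. All 6 hormone genes were named, each with its contrast of smallest p, besides overlapping genes, the 5 most alike and fixed pathway lists. The members and lists were chosen with earlier results of these data known.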

Additional observations from a re-analysis of the deposited data

How the results depend on the processing

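No hormone gene was called for any compound, the mean of the compounds or the joint test with DESeq2, RLE size factors, the GC offset, the granule covariate or any library left out, nor for any compound with only the 2 groups compared, which was not run for the mean and the joint test. Without a filter on low counts (44689 genes) edgeR called 1 hormone gene with moxifloxacin, SST (adjusted p = 0.0449). Its joint test called 3, INS (adjusted p = 0.00842), GCG (adjusted p = 0.0256) and SST (adjusted p = 2.46e-10), although the SST libraries of 1 treatment differed up to 13.1-fold. The SE without the filter was 0.36, against 1.11 with it, for INS with moxifloxacin and 0.23, against 1.40, for SST with Ly-294002. The log2 changes were 1.15 against 1.13 and −0.82 against −0.84. The cause was not tested, and the share of all genes called without the filter was not taken. With the library number as a replicate block 0 of 6 were called in every comparison, and the smallest adjusted joint p was 0.843 (UCN3). The numbers were not taken as pairs, since deviations of same-numbered libraries correlated above 0.1 in 8 of 28 pairs of treatments (−0.53 to 0.44), so a block with the GC offset was not run. With the granule covariate the SST change with Ly-294002 turned to 0.22. Leaving out 1 library gave −0.13 to 2.60 for INS with moxifloxacin, −1.76 to −0.18 for GCG and 0.41 to 0.99 for GHRL with rimonabant, −1.36 to −0.09 for SST with Ly-294002, −4.83 to 6.85 for PPY and −2.83 to 0.38 for UCN3 with epirizole, where an arm was left with 1 library that is assumed to vary like the others. With 4 libraries alone PPY and UCN3 under epirizole did not pass the filter and have no value. Of the 21 correlations 15 passed, 12 to 15 with 1 library left out and 8 without the 2 farthest. The near-zero relation of UCN3 with GHRL turned to 0.25 without the 2 farthest libraries and 0.14 over the 8 differences (−0.15 to 0.10 with 1 library left out), and that with PPY to 0.15 without the 2 farthest and 0.068 with a pseudocount of 0.1 CPM (−0.14 to 0.25).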
